A study of Mus musculus with 18 samples.

Results

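The peaks described here are those that the authors' final list of mouse embryonic fibroblasts (MEFs) holds and their final lists of embryonic stem cells (ESCs) and embryoid bodies (EBs) do not. They were chosen by overlap: a MEF final peak was kept when not a single base of it lay in an ESC or EB final peak. Of 10167 MEF final peaks, 2856 met this rule, which is 28.1% of the MEF list, and they are called MEF-only peaks below. A smaller set of 731 also overlapped no peak in any of the 3 ESC and 3 EB libraries, which is 7.19% of the MEF list and 25.6% (24.0 to 27.2, Wilson 95% interval) of the MEF-only peaks. Both counts follow from the rule and are given as a description. The 3 final lists together hold 28982 peaks.

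m6A-seq pulls down RNA fragments with an antibody against N6-methyladenosine and sequences them beside the input RNA. The enriched samples were 3 ESC libraries of the BVSC line grown in serum-free medium with LIF and the inhibitors CHIR99021 and PD0325901, 3 EB libraries of the same line kept 8 to 21 days in suspension in serum medium, 2 MEF libraries from decapitated embryos of embryonic day 13.5, and 1 Mettl3-KO ESC library. The strain label of every group is C57BL/6, and no sample label gives the day of a single EB library or the make-up of a MEF culture, grown from the dissociated body. Peak lists of ESC replicates A, B and C (10515, 19816 and 17698 peaks) and of EB replicates A, B and C (18185, 21509 and 12364 peaks) were used beside the final lists (10431 in ESCs and 8384 in EBs), while MEF peaks of single libraries were not analysed here. The files hold positions only, so the reads behind a peak are unknown, and all intervals cover counting error only. With 1 final list per cell type no difference between cell types was tested.

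m6A is the most common internal modification of mRNA and is laid down in the nucleus by a complex built around the methyltransferase Mettl3 and its partner Mettl14. The complex favours an A within the DRACH context (D stands for any base but C, R for a purine, and H for any base but G), of which GGAC is the best known core, and most sites lie in long internal exons, around stop codons and in 3′ UTRs. Reader proteins bind methylated sites and alter the stability and translation of the RNA. Fibroblasts are mesenchymal cells that secrete collagens and other parts of the extracellular matrix. A true m6A peak needs both an expressed transcript and a methylated site, so its absence can stand for a lack of either. An absent final peak need not mean an absent library peak: 250 MEF-only peaks overlapped a peak in all 6 ESC and EB libraries. Peaks were also called in the Mettl3-KO library (2043), so a called peak alone does not show Mettl3 methylation. In bulk RNA, fewer expressing cells and less RNA per cell cannot be told apart.

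The sites below are examples of where these peaks sit. Only sites with a GGAC are printed, so they do not show how common GGAC is in these peaks. In each site, the GGAC nearest to the peak centre lies in the middle, and every GGAC is in capitals. The middle of a site need not be the peak centre. Counted along the mRNA, the A of that GGAC lay -165 nt from the peak centre on Fbln2 and 120 nt on Col5a1. It lay -8 nt from the peak centre on Fzd1 and 6 nt on Thbs2. Positions are those of mm10. The sequence is that of the mRNA strand in the GENCODE M21 transcript, written 5′ to 3′ as DNA. The first 8 come from MEF-only peaks that no ESC or EB library overlapped: the Hippo kinase Lats2, the Wnt receptor Fzd1, the Rac activator Tiam1, the hedgehog transducer Smo, the phosphatase subunit Ppp2r3a, the centrosomal protein Cep350, the fibrillar collagen Col5a1 and the cell cycle inhibitor Cdkn1b.
Lats2 (chr14:57699596-57699696, minus strand, coding sequence): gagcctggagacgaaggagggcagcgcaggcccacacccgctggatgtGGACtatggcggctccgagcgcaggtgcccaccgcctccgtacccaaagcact
Fzd1 (chr5:4756662-4756762, minus strand, coding sequence): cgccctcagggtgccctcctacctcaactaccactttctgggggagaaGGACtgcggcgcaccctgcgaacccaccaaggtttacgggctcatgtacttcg
Tiam1 (chr16:89885008-89885108, minus strand, coding sequence): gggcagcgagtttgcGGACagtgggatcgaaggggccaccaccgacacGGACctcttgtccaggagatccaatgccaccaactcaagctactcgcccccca
Smo (chr6:29760062-29760162, plus strand, coding sequence): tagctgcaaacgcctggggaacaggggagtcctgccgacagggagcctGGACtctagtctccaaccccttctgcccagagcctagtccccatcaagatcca
Ppp2r3a (chr9:101107350-101107378, minus strand, 3′ UTR): actggagttcagGGACcttgaacttacct
Cep350 (chr1:155848404-155848432, minus strand, 3′ UTR): ttggagttcatgGGACaatgtggtatatc
Col5a1 (chr2:28038444-28038472, plus strand, 3′ UTR): gaaatgtgggatGGACtctggctccaggg
Cdkn1b (chr6:134922234-134922262, plus strand, 3′ UTR): aatcacttgaggGGACtataatgcagtat

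The next 7 come from MEF-only peaks on matrix and fibroblast genes that 1 to 3 of the 6 libraries did overlap: the collagens Col8a1 and Col6a3, the microfibril protein Fbn1, the matricellular protein Thbs2, the matrix glycoprotein Fbln2, the receptor Tgfbr2 and the mesenchymal transcription factor Twist1.
Col8a1 (chr16:57627329-57627429, minus strand, coding sequence): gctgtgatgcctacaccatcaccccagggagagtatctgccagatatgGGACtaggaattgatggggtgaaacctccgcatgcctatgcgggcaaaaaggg
Col6a3 (chr1:90802458-90802558, minus strand, coding sequence): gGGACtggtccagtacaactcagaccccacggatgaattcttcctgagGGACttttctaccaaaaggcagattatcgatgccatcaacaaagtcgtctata
Fbn1 (chr2:125301676-125301776, minus strand, coding sequence): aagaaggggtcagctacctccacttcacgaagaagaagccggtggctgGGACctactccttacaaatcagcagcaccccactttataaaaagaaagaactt
Thbs2 (chr17:14689921-14690021, minus strand, coding sequence): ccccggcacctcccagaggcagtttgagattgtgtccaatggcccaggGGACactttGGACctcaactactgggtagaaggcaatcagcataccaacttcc
Fbln2 (chr6:91271732-91271832, plus strand, coding sequence): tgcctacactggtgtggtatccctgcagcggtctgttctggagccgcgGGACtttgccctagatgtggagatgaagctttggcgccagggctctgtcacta
Tgfbr2 (chr9:116109833-116109933, minus strand, coding sequence): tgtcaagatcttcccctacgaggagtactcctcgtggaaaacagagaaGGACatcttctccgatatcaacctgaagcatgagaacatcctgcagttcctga
Twist1 (chr12:33959332-33959360, plus strand, 3′ UTR): agacaggcccgtGGACagagattcccaga

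The last pair comes from the widest MEF-only peaks of Irf2bpl, a transcriptional regulator, and of Srcap, a chromatin remodelling ATPase. All 6 ESC and EB libraries had a peak there, although neither final list does.
Irf2bpl (chr12:86882433-86882533, minus strand, coding sequence): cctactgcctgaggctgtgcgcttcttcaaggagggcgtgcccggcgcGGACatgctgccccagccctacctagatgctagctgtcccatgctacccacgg
Srcap (chr7:127559898-127559998, plus strand, coding sequence): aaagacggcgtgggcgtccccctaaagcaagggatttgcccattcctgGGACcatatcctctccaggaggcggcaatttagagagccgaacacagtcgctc

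Of the MEF-only peaks, 1875 (65.7%, 63.9 to 67.4) overlapped a peak in 1 to 5 of the 6 ESC and EB libraries and 250 (8.75%, 7.77 to 9.85) overlapped one in all 6. By library, ESC replicates A, B and C overlapped 13.8%, 39.2% and 26.2% of them (mean 26.4%, SD 12.7, n = 3), and EB replicates A, B and C overlapped 44.2%, 52.1% and 17.9% (mean 38.0%, SD 17.9, n = 3). Within each cell type the share followed the length of the library's list, lowest in ESC replicate A and EB replicate C and highest in the 2 replicates B. The part of list length in this order was not tested. A peak in EB libraries but in no ESC library was found for 601 MEF-only peaks (21.0%), in ESC libraries but in no EB library for 314 (11%), and in both for 1210 (42.4%).

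**Figure D1:**
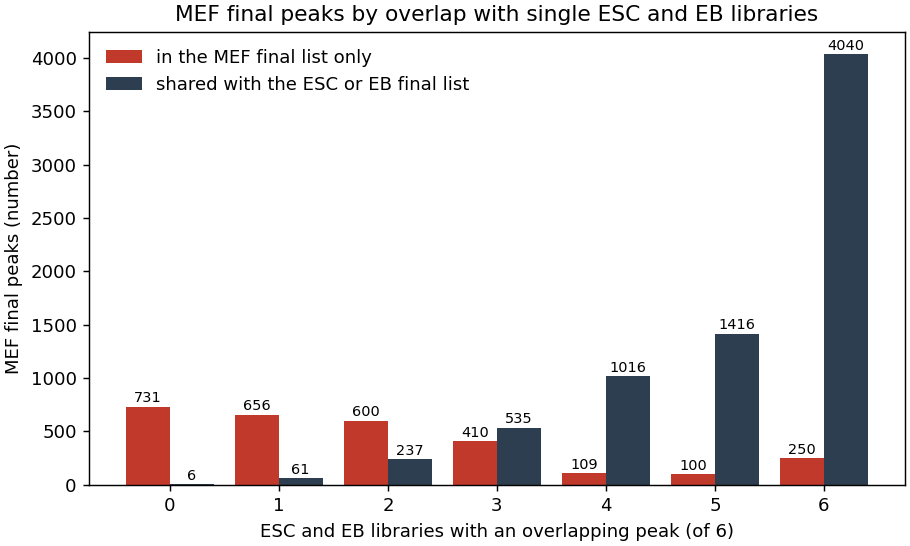
MEF final peaks by the number of ESC and EB libraries with an overlapping peak, as counts. Red bars are the 2856 MEF-only peaks and dark bars the 7311 MEF peaks shared with an ESC or EB final peak; the red bars are highest at 0 libraries (731) and rise again at 6 (250).

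The ESC and EB final lists each followed their own libraries. Every ESC final peak (10431 of 10431) overlapped at least 2 of the 3 ESC libraries, and every EB final peak (8384 of 8384) overlapped EB replicate C. Of the MEF-only peaks, 2228 (78.0%) met neither condition. The other peaks had such an overlap and still no final peak: 457 (16.0%) overlapped at least 2 ESC libraries and 512 (17.9%) overlapped EB replicate C, counts that share peaks. The conditions differ between the cell types, and the 78.0% depends on the one taken for EBs. At least 2 of the 3 EB libraries overlapped 8340 of the EB final peaks (99.5%) and 1072 of the MEF-only peaks (37.5%).

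The 250 MEF-only peaks with a peak in all 6 libraries were wide, and most were on genes that the ESC and EB final lists do not name. Their median width was 285 bp, against 122 bp for the 731 peaks without any library overlap, 148 bp for the 1875 in between and 241 bp for the 7311 MEF peaks shared with ESCs or EBs. For 212 of the 250 (84.8%) the deposited gene symbol, older names included, occurred nowhere in the ESC or EB final list, while this held for 79% of the 100 MEF-only peaks with 5 overlapping libraries, 68.8% of the 109 with 4, 37.1% of the 731 with none and 45 of the 4040 shared MEF peaks that all 6 libraries overlapped. The widest MEF-only peaks of Irf2bpl (1879 bp), Srcap (1190 bp), Wbp1l (1111 bp), Zbtb14 (1090 bp), Soga1 (1055 bp) and Cep170b (1003 bp) are of this kind, genes chosen here after their values were seen. Srcap carried 5, 3 and 2 peaks in ESC replicates A, B and C and 4, 2 and 2 in EB replicates A, B and C. For such a peak the lack of an ESC or EB final peak was not matched by a lack of library peaks, and why the gene is missing from those final lists was not tested.

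Width moved with membership. Among MEF final peaks of 3 to 132 bp, 48.3% (46.3 to 50.2) were MEF-only, and the share was 33.5% at 133 to 208 bp, 19.2% at 209 to 332 bp and 11.5% (10.3 to 12.8) at 333 to 1879 bp. The share without any library overlap went from 17.1% (15.6 to 18.6) in the narrowest quartile over 8.42% and 2.73% to 0.587% (0.356 to 0.966) in the widest, which is 15 peaks. The MEF list holds 834 peaks under 100 bp (8.20%), a width that neither the ESC nor the EB final list contains (shortest 108 and 114 bp). The part of width in membership was not tested.

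**Figure D2:**
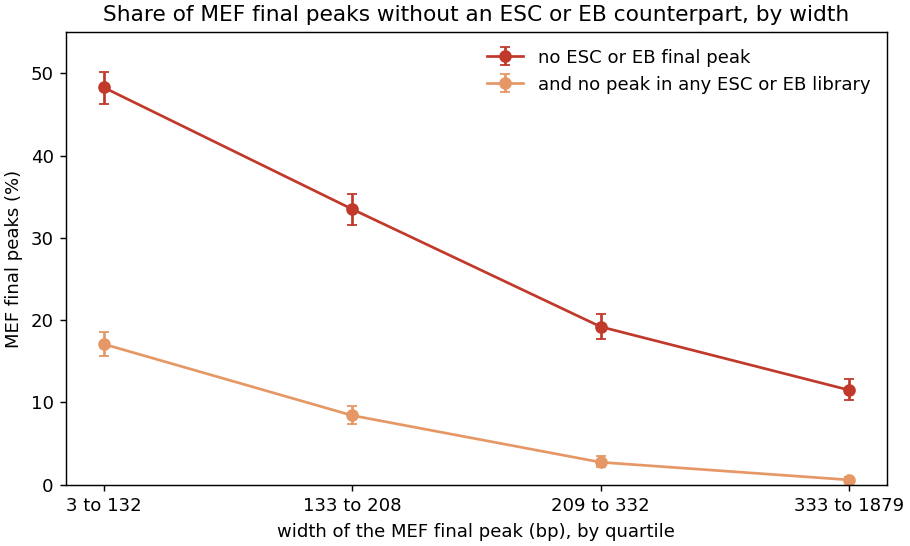
Share of MEF final peaks, in percent with Wilson 95% intervals, that lack an ESC or EB final peak (red) or also lack any ESC or EB library peak (orange), by width quartile of the MEF list in bp. Both shares fall from the narrowest to the widest quartile, from 48.3% to 11.5% and from 17.1% to 0.587%.

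At the edge of the rule, a MEF-only peak on Atp10d, a phospholipid transporter, touched an ESC or EB final peak with 0 bases between, one on Prx, known for its role in Schwann cells, lay 2 bases away and one on the heat shock gene Hspa1b 5 bases away. Just outside it, E130317F20Rik and 4933411K20Rik shared 2 bases with a final peak and Gclc, a subunit of the enzyme that starts glutathione synthesis, shared 3. In all, 8 MEF-only peaks lay under 10 bases from a final peak and 16 other MEF peaks shared under 10 bases. The median distance to the nearest ESC or EB final peak was 10042 bp, and 27.5% of the MEF-only peaks had one within 1000 bp. It was 6075 bp for those without any library overlap and 44754 bp for those that all 6 libraries overlapped.

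The share of peaks around stop codons was smaller among MEF-only peaks than among the MEF peaks shared with ESCs or EBs, and the share outside the canonical mRNA larger. By the peak centre on the gene's canonical transcript, 17.1% (15.8 to 18.5) lay within 200 nt of the stop codon against 27.6% (26.6 to 28.7) of the shared peaks, and 14.4% (12 to 17.1) of those without any library overlap. The coding sequence held 38.2% of the MEF-only and 42.6% of the shared peaks, and the rest of the 3′ UTR 18.2% and 17.5%. Exons outside the canonical mRNA held 7.98% against 2.45%, and introns 4.62% against 1.12%. The first 200 nt of the transcript held 9.91% (8.87 to 11.1) against 5.76% (5.25 to 6.32), far below the 24.6% of the 2142 ESC-only and the 30.7% of the 1171 EB-only final peaks.

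**Figure D3:**
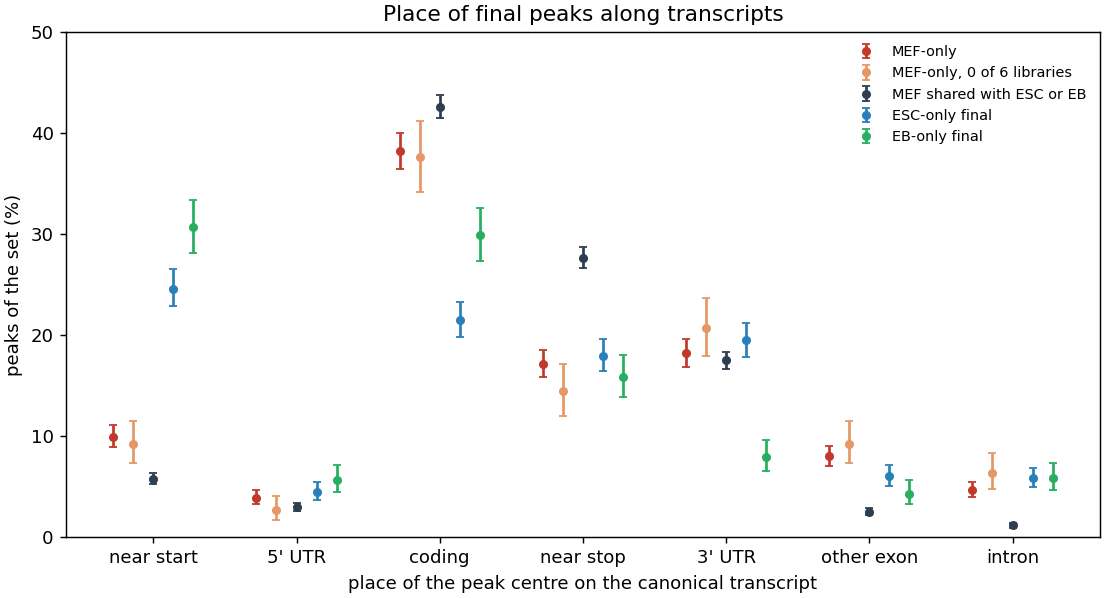
Place of the peak centre on the canonical transcript, as percent of each set with Wilson 95% intervals: MEF-only peaks, those without any library overlap, shared MEF peaks, and the peaks of the ESC and EB final lists only. Near start and near stop mean within 200 nt of the transcript start or stop codon; the shared MEF peaks are highest near the stop codon (27.6%) and the EB-only and ESC-only peaks near the start (30.7% and 24.6%).

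The 2 differences did not move alike with width. Near the stop codon, the MEF-only share was below the shared one in each width quartile, at 15.7% against 22.2%, 17.9% against 31.1%, 18.1% against 31.9% and 19.0% against 24.3% from narrow to wide. Near the start, the values within quartiles were 18.1% against 21.3%, 5.41% against 5.91%, 2.88% against 1.91% and 0.340% against 0.0884%, so that the higher pooled MEF-only share was not seen in the 2 narrower quartiles, which hold most of these peaks. Of the MEF-only peaks centred in an mRNA, 56.0% (54.1 to 58.0) lay in the last exon against 62.2% (61.0 to 63.3) of the shared ones, 51.5% of the ESC-only and 36.9% of the EB-only peaks. Of those centred in coding sequence, 36.6% (34.2 to 39.2) lay in internal exons of 400 nt or more, against 41.7% (40.2 to 43.3) of the shared, 24.2% of the ESC-only and 25.1% of the EB-only peaks.

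A larger share of MEF-only peak centres than of all windows tiled along the same mRNAs held the GGAC core. It occurred within 50 nt of the centre in 53% (51.0 to 54.9) of 2481 MEF-only peaks and in 46.1% (42.2 to 50) of 614 without any library overlap, against 33.1% of all windows of 101 nt tiled along the mRNAs of either set. The shared MEF peaks stood at 58.4% (57.3 to 59.6), and the MEF-only peaks with 1 to 5 and with 6 overlapping libraries at 54.8% and 58.6%. Search was on the transcript strand, and the windows of MEF-only and shared peaks had like base composition (54.7% and 54.2% G and C). The base composition of the tiled windows was not measured. The wider context DRACH occurred in 92.6% of MEF-only windows, in 94.9% of shared ones and in 86.4% of the tiled ones. The base after GGAC was T in 33.0% of the 1771 motifs of MEF-only windows and A in 31.0%, close to the 33.7% and 31.4% of the shared ones.

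**Figure D4:**
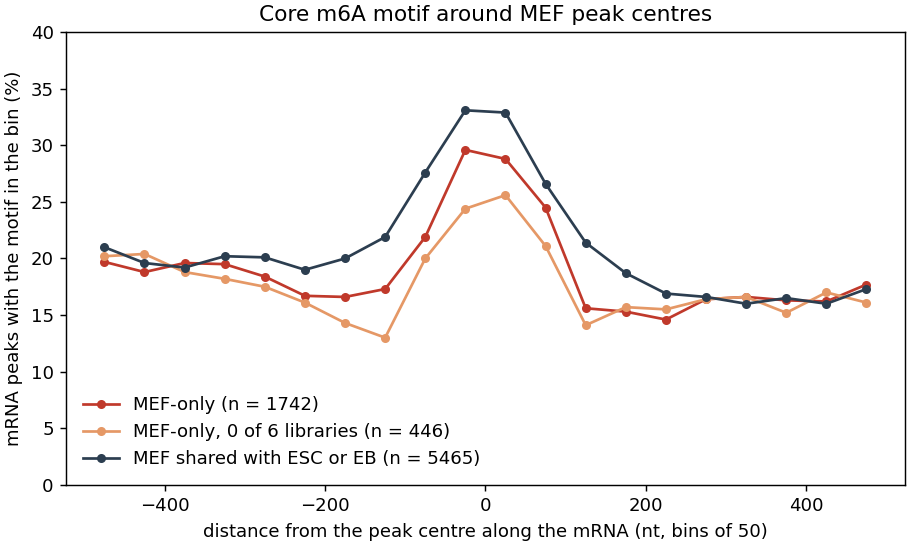
Percent of mRNA peaks with a GGAC in each 50 nt bin, by distance of the bin from the peak centre along the mRNA (peaks with 500 nt of mRNA on both sides). All 3 curves are highest in the bins next to the centre, where the MEF-only peaks reach 29.6%, those without any library overlap 25.6% and the shared peaks lie above both.

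Within width quartiles the GGAC share of the peaks without any library overlap was 47.4%, 42.8%, 51.7% and, over 15 peaks, 33.3%, and that of the shared peaks 53%, 62.4%, 65.5% and 52.2%. The first set was lower in each quartile, and the intervals lay apart in the second (35.8 to 50.1 against 60.1 to 64.8) and overlapped in the other 3.

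Few MEF-only peaks overlapped a peak of the Mettl3-KO library, which comes from ESCs and holds 2043 peaks. The overlap was 78 of 2856 (2.73%, 2.19 to 3.40) for the MEF-only peaks, 4 of 731 (0.547%, 0.213 to 1.4) for those without any library overlap and 3.69% (3.28 to 4.15) for the shared MEF peaks. It was 11.4% for the ESC-only and 13.3% for the EB-only final peaks. Of the 78, 47 lay near transcript starts, where 16.6% of the 283 MEF-only peaks and 45.6% of the shared ones overlapped a knockout peak. The widest MEF-only peak with such an overlap was on Ajuba, a LIM protein that inhibits Lats kinases, at 781 bp in the coding sequence, and all 6 ESC and EB libraries overlapped it too. The knockout library is from ESCs and cannot report on transcripts that ESCs lack. The 731 were chosen for having no peak in any ESC library, so their low overlap with this ESC library is not independent of that choice. The shared peaks were chosen for an ESC or EB final peak.

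By exon overlap, 5761 genes held a MEF final peak, 2101 of them (36.5%) a MEF-only peak and 668 (11.6%) one without any library overlap. The gene that the authors deposited beside a peak had an exon under it for 2658 of the 2856 (93.1%). Of the 2101 genes, 995 (47.4%) also held a MEF peak shared with ESCs or EBs. All but 87 had a peak in some ESC or EB list, counting library peaks under the MEF-only peak itself. Of 617 peaks without any library overlap that were centred in an mRNA, 530 had an ESC or EB library peak elsewhere on the same mRNA, at a median distance of 454 nt (quartiles 270 and 807 nt). For 230 of the 530 (43.4%) that distance was over 500 nt.

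A single MEF-only peak was found on 1553 genes, and 1 gene held 12. That gene was Vcan, which encodes versican, a large chondroitin sulphate proteoglycan of the matrix. Of its 15 MEF final peaks, 12 were MEF-only and 6 of these had no library overlap. ESC replicates A, B and C had 2, 6 and 4 peaks on Vcan and EB replicates A, B and C 7, 10 and 2, so that every library had some. The MEF-only peaks lay in 3 exons, 6 of them in an exon of 5217 nt (chr13:89688285-89693501), 4 in one of 2880 nt (chr13:89702918-89705797) and 2 in the last exon. The 2 inner exons are the alternatively spliced ones that carry the chondroitin sulphate attachment regions. All 4 peaks of the 2880 nt exon were without any library overlap, against 2 of 6 in the longer exon and 0 of 2 in the last.

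Among the genes that followed were Prr14l and the ubiquitin ligase gene Rnf213, with 9 MEF-only peaks each, and Soga1 with 8. The genes 5830417I10Rik, Amer1 (an inhibitor of Wnt signalling), Map1b (a microtubule-associated protein), Mtcl1 and Stard9 had 7 each. Of these genes, Prr14l, Soga1, 5830417I10Rik, Amer1, Map1b and Mtcl1 held no ESC or EB final peak at all, yet each had peaks in all 6 libraries. Prr14l had 5, 10 and 11 in ESC replicates A, B and C and 12, 9 and 9 in EB replicates A, B and C. Map1b had 2, 4 and 3 in ESCs and 6, 7 and 2 in EBs, and 3 of its 7 MEF-only peaks had no library overlap.

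Only 87 genes, 1.51% of those with a MEF final peak, had no peak in any ESC or EB list, and 64 of them are protein-coding. The widest MEF peak per gene ranged from 362 bp (Cep295nl) down to 46 bp (Rab3d), and many were narrow. A peak over several genes counted for each, as did one of 123 bp for Gal3st4, 6330418K02Rik and Gm43720. The genes named next are examples. The mesodermal transcription factor Tbx15 had 3 MEF peaks (345, 245 and 127 bp) around its stop codon and in its 3′ UTR, and 0 peaks in each of the 6 libraries. Scx, a transcription factor of tendon progenitors, also had 3, the widest of 208 bp near the stop codon. Cav1, the scaffold protein of caveolae, had 2 in the 3′ UTR (180 and 124 bp). Thbs3, a thrombospondin of the matrix, had 2, of which the wider (229 bp) lies in its coding sequence and carries the neighbouring gene Mtx1 as its deposited symbol. Other genes of this kind were Pomt1, which glycosylates dystroglycan, the acid-sensing channel gene Asic1, Srrm4, a splicing regulator, and the heat shock gene Hspa2, with 1 to 2 peaks each. The files give no expression, so that a silent gene, an unmethylated one and one whose peak was not called look the same here.

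Matrix genes carried MEF-only peaks on a larger share of their MEF peaks than all genes did. Of 36 MEF peaks on matrix glycoproteins and proteoglycans, 28 were MEF-only (77.8%, 61.9 to 88.3), and of 17 on fibrillar and network collagens 12 (70.6%, 46.9 to 86.7), beside 28.1% of all MEF peaks. Among peaks of at least the median width of 209 bp the shares were 12 of 16 (75%) and 6 of 10 (60%), beside 15.3% over all such MEF peaks. Counted by gene, 12 of 31 glycoprotein genes and 6 of 19 collagen genes had a MEF peak. A MEF-only peak was on 10 of these 12 and on 6 of these 6, beside 36.5% of all genes with a MEF peak. On 7 and 5 of them it was without any library overlap, beside 11.6%. Other genes of these lists, among them Tnc, Thbs1, Igfbp5, Col1a2, Col6a1 and Col6a2, had an ESC or EB final peak and no MEF final peak. These lists were chosen with results of these data known, and no test of them was made.

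**Figure D5:**
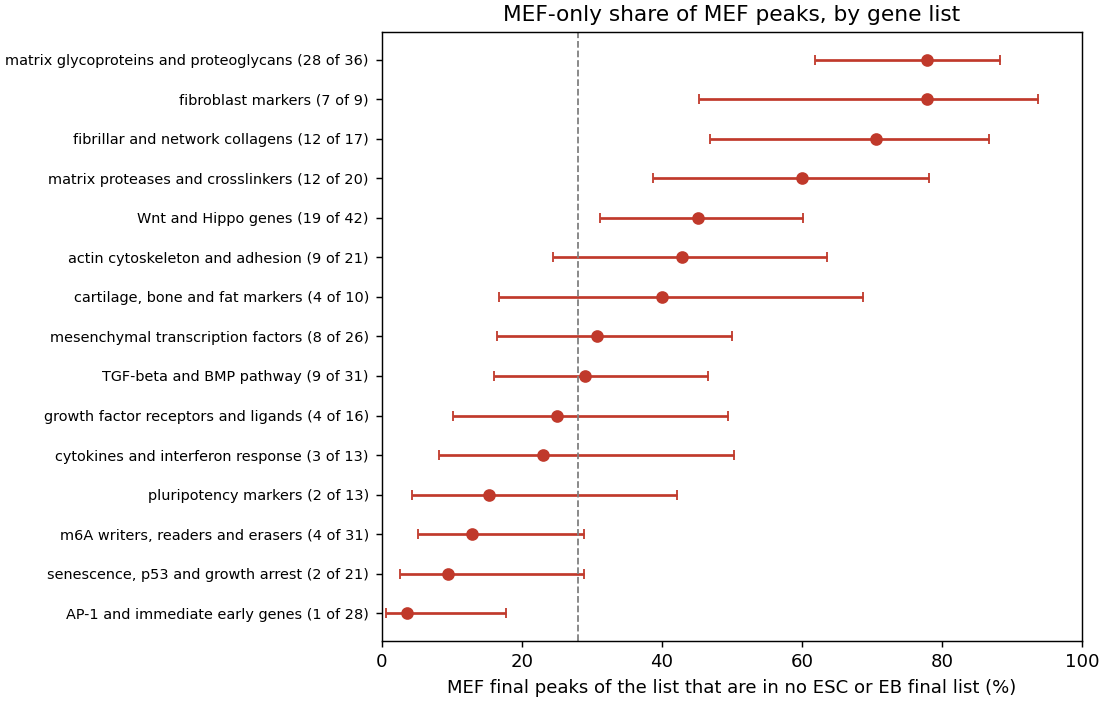
Percent of the MEF final peaks on each gene list that are MEF-only, with Wilson 95% intervals and counts beside each name (lists with at least 5 MEF peaks); the dashed line is the 28.1% of all MEF peaks. Matrix glycoproteins (77.8%), fibroblast markers (77.8%) and collagens (70.6%) lie highest and immediate early genes lowest (3.57%).

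Among collagens, Col6a3, a chain of the beaded filament collagen, had 8 MEF peaks of which 5 were MEF-only. It had 0, 5 and 2 peaks in ESC replicates A, B and C and 5, 7 and 2 in EB replicates A, B and C. Its widest MEF-only peak (499 bp, chr1:90802105-90802603) lies in the coding part of exon 8 and overlapped a peak of ESC replicate B alone. Col8a1, a short-chain network collagen, had a MEF-only peak of 625 bp in its last exon (chr16:57626961-57627585), again met by ESC replicate B alone. Both MEF-only peaks of the fibrillar collagen gene Col5a1 (326 and 120 bp) lie in its 3′ UTR and no library overlapped them, although ESC replicates A, B and C had 1, 2 and 1 peaks on the gene and EB replicates A, B and C 2, 2 and 1. Col12a1, which decorates collagen fibrils, had 1 MEF peak of 400 bp, met by EB replicate A alone. Smaller ones lay on Col18a1 (214 bp) and, at 19 bp near the transcript start, on Col5a2.

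Among glycoproteins, all 3 MEF peaks of Fbn1, fibrillin of the microfibrils, were MEF-only. The widest spans the stop codon (480 bp, chr2:125301325-125301804) and overlapped ESC replicate B and EB replicates A and B, while those in the 3′ UTR (131 bp) and the 5′ UTR (99 bp) met no library. Fbln2 had 2, of which that near the stop codon (424 bp) overlapped ESC replicate A and EB replicates A and B. Thbs2, an inhibitor of angiogenesis, had 2, the wider in the coding part of exon 3 (370 bp). Emilin1, of elastic fibres, had 2 near its stop codon (356 and 105 bp), and Ltbp2, a microfibril-associated protein, 2 in its 3′ UTR (244 and 192 bp). Ccn2, a matricellular target of TGF-beta and Hippo signalling, had 1 (186 bp).

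Of 20 MEF peaks on matrix proteases and crosslinkers 12 (60%, 38.7 to 78.1) were MEF-only beside 28.1% of all MEF peaks, and 4 of 10 of those of at least 209 bp (40%) beside 15.3%. The aggrecanase Adamts4 (339 bp) and the procollagen protease Bmp1 (335 bp) each had one near the stop codon that overlapped ESC replicate B and EB replicates A and B, and each had another, narrow one near the transcript start that no library overlapped (86 and 129 bp). Loxl2, a lysyl oxidase that crosslinks collagen, had MEF-only peaks of 227 bp and 104 bp.

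As a check of the label, 5 of 20 fibroblast markers had a MEF final peak: Thy1, Pdgfrb, Fbln2, Twist1 and Loxl2. Each of the 5 held a MEF-only one, beside 36.5% of all genes with a MEF peak. The MEF peaks of the 5 markers numbered 9, of which 7 were MEF-only (77.8%, 45.3 to 93.7), beside 28.1% of all MEF peaks. Each of the 7 overlapped 1 to 5 of the libraries. The peak on Thy1, of 91 bp, was centred in an intron. The other 15 markers, among them Col1a1, Col1a2 and Vim, were without a MEF final peak in these lists, which hold no expression. Of these, Col1a2 and Pdgfra had 1 ESC final peak each, and Pdgfra and Prrx1 had 1 EB final peak each. Endothelial, epithelial, and muscle and heart markers had no MEF final peak (0 of 12, 0 of 15 and 0 of 15 genes). Of blood markers 1 had a MEF peak (Csf1r), which was shared, and of 24 pluripotency markers 5 had one, Klf2, Klf4, Klf5, Tbx3 and Tet1. Of the 13 MEF peaks on these pluripotency genes 2 were MEF-only (15.4%, 4.33 to 42.2), with the 28.1% inside the interval. They were narrow ones of 93 bp on Klf4 and 111 bp on Klf5, genes that fibroblasts can express too. Of 20 neural markers 2 had a MEF peak, Nes and Tubb3, and 2 of their 3 MEF peaks were MEF-only (66.7%, 20.8 to 93.9). The MEF-only ones (242 and 204 bp) lay on Nes, a neural progenitor filament gene that cultured mesenchymal cells also use. The peak on Tubb3 was shared.

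In Wnt and Hippo signalling, 19 of 42 MEF peaks (45.2%, 31.2 to 60.1) were MEF-only beside 28.1% of all MEF peaks. Of those of at least 209 bp, 10 of 29 (34.5%) were MEF-only beside 15.3%. Counted by gene, 5 of 14 with a MEF peak (35.7%) held a MEF-only one, near the 36.5% of all genes. A MEF-only peak without any library overlap was on 4 of the 14 (28.6%), beside 11.6% of all genes. Most of the 19 peaks thus lay on a few genes. Fzd1 held 6 MEF peaks, all MEF-only, on its single exon, and 4 of them met no library. ESC replicates A, B and C had 0, 2 and 0 peaks on Fzd1 and EB replicates A, B and C 3, 3 and 0. Fzd2, another frizzled receptor, had 3 (210, 176 and 143 bp), none met by a library, and its only library peak was 1 in ESC replicate B. Lats2 had 5 of 6, among them the widest of all MEF-only peaks without a library overlap (699 bp, chr14:57699361-57700059, in the coding part of exon 4). Ajuba had 4 of 4, and 3 of these overlapped all 6 libraries.

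The TGF-beta and BMP pathway was near the background by share of all MEF peaks, with 9 of 31 (29.0%, 16.1 to 46.6). Of its MEF peaks of at least 209 bp, 4 of 16 (25%) were MEF-only, beside 15.3% of all such MEF peaks. Tgfbr2, the ligand-binding receptor of TGF-beta, had 2 MEF peaks and both were MEF-only, one of 625 bp in the coding part of exon 4 (chr9:116109537-116110161) and one of 310 bp near the stop codon. ESC replicates A, B and C had 0, 1 and 1 peaks on it and EB replicates A, B and C 3, 4 and 0. Smad6, an inhibitor of the pathway, had MEF-only peaks of 432 and 131 bp in its 5′ UTR, while Smad7, Ski and Skil had shared peaks alone. Growth factor genes, at 4 of 16 of all their MEF peaks (25%), were near the background too. Of those of at least 209 bp, 2 of 12 (16.7%) were MEF-only. The growth factor genes held a 548 bp MEF-only peak in the 3′ UTR of the receptor gene Pdgfrb. Actin and adhesion genes stood at 9 of 21 (42.9%, 24.5 to 63.5), with the 28.1% inside the interval, and among peaks of at least 209 bp at 1 of 9 (11.1%), below the 15.3% of all such MEF peaks.

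Mesenchymal transcription factors were near the background of 28.1% by share of all MEF peaks, with 8 of 26 (30.8%, 16.5 to 50). By other counts they stood above it. Of their MEF peaks of at least 209 bp, 4 of 14 (28.6%) were MEF-only, beside 15.3%. Of 7 genes with a MEF peak, 5 (71.4%) held a MEF-only one, beside 36.5% of all genes. On 3 of the 7 (42.9%) it was without any library overlap, beside 11.6%. Besides the 3 on Tbx15, the 8 MEF-only peaks were 2 on Zeb1, 1 on Twist1 (294 bp, 3′ UTR), 1 on Klf4 and 1 on Gli1 (10 bp). On Zeb1, a repressor of epithelial genes, one of 374 bp met no library. Of 18 cartilage, bone and fat markers, 4 had a MEF peak. Of their 10 MEF peaks 4 were MEF-only (40%, 16.8 to 68.7), with the 28.1% inside the interval. The MEF-only ones lay on Col2a1 (433 and 92 bp), Cebpa (429 bp) and Cebpb (101 bp), while the 5 MEF peaks of Acan were shared.

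Immediate early genes, which serum and adhesion induce in many cell types, were the opposite case. Of 28 MEF peaks on 15 genes of this list, 1 was MEF-only (3.57%, 0.633 to 17.7), beside 28.1% of all MEF peaks. It was a peak of 119 bp on the phosphatase gene Dusp6. Senescence, p53 and growth arrest genes had 2 of 21 (9.52%, 2.65 to 28.9), on Cdkn1b (250 bp, near the stop codon, no library overlap) and Cdkn2a (109 bp). The genes of the m6A machinery had 4 of 31 (12.9%, 5.13 to 28.9), all under the median width, on the writer subunits Virma (77 bp), Zc3h13 (117 and 96 bp) and Cbll1 (40 bp). Cytokine and interferon genes had 3 of 13 (23.1%, 8.18 to 50.3), on Irf9 (176 and 145 bp) and Stat2 (144 bp). The 28.1% of all MEF peaks lies inside the intervals of the senescence, m6A and cytokine lists.

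The 12 widest MEF-only peaks without a library overlap spanned 352 to 699 bp. After Lats2 came Rfxank (650 bp), a regulator of MHC class II genes, Fzd1 (591 bp), Ppp2r3a (484 bp), BC018507 (429 bp, Ice1 in the annotation), the protocadherin gene Fat1 (414 bp), Tiam1 (412 bp), Fzd8 (398 bp), Zeb1 (374 bp), Timp2 (362 bp), Cep350 (360 bp) and Smo (352 bp). The genes under all of these but the Timp2 peak had ESC or EB peaks elsewhere. Fat1 had 6, 11 and 11 in ESC replicates A, B and C and 13, 15 and 12 in EB replicates A, B and C, with 9 final peaks in each cell type. Smo had a single one, in EB replicate A. The peak deposited under Timp2, an inhibitor of matrix metalloproteinases, lies in an exon of Cep295nl, a gene within an intron of Timp2 on the same strand, and Cep295nl had no ESC or EB peak.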

How the data were processed

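The deposited files hold genomic positions of peaks (the authors' unit) and, in the 3 final lists, gene IDs and symbols, with no score or read count. The tools MACS 1.4.1, TopHat2 2.0.10 and CASAVA 1.8.2 and the build mm10 are named, per the submitters' processing notes, without role or threshold. The sources used here do not say how the final lists were joined. Samples were grouped by title (18 samples, 8 groups).

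Overlap meant at least 1 shared bp. MEF starts were read as counted from 0, which could not be checked, so they may be off by 1 bp. Peaks were placed on GENCODE M21 basic annotation without strand, so a peak can count for overlapping or antisense genes; place and motif used the canonical mRNA (the first 200 nt and 200 nt around stop codons, GGAC within 50 nt). Printed sites equalled the GRCm38 genome (0 differences). Python 3.11.15, NumPy 2.4.6, SciPy 1.17.1, pysam 0.24.0 and matplotlib 3.10.9 were used, and overlap and place calls were checked on simulated intervals.

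No test was made; Wilson 95% intervals cover counting error only. The peaks and the 21 gene lists (483 genes) were chosen with earlier results of these data known. Named genes are the 12 widest peaks without a library overlap, the 10 genes with most peaks, list genes (up to 4 per list by width), the 3 widest per place, those nearest the edge of the rule, and the 3 widest with a knockout overlap; other names were chosen after their values were seen. Some genes that this rule names are not reported here. Alternatives covered overlap, width, coordinates, libraries, windows, motif, transcript and gene assignment.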

Additional observations from a re-analysis of the deposited data

How the results depend on the processing

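The count of MEF-only peaks (2856) was 3031 when at least 50% of a peak had to be covered to count as shared, 2732 when a final peak within 100 bp counted, 2855 with MEF starts counted from 1 and 2398 among peaks of at least 100 bp. It fell to 780 among peaks at or above the median width. The 731 without any library overlap became 613 when a library peak within 100 bp counted, 744 to 939 with 1 ESC or EB library left out in turn (lowest without ESC replicate A, highest without EB replicate B) and 1387 when 1 overlapping library was allowed. With a window of 100 nt in place of 200 nt, shares near start, near stop, in coding sequence and in the 3′ UTR were 2.98%, 10.3%, 43.5% and 22.3%, and with 400 nt they were 15.0%, 26.2%, 31.1% and 13.3%, since the window defines the class. The GGAC share (53%) was 31.0% within 25 nt and 73.3% within 100 nt, against 18.2% and 54.5% of tiled windows, and 92.6% with DRACH. Of genes with a MEF-only peak, 4.14% had no ESC or EB peak, and 41.6% by deposited symbols against the final lists alone, which leaves out library peaks. The longest mRNA and a knockout overlap within 100 bp (2.80%) moved no value beyond its interval. No paired analysis was possible because no result comes from a test and MEF libraries were not analysed singly. Unknown depth, 1 final list per cell type and the lack of expression values limit every comparison.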
